A study of Homo sapiens with 346 samples.

Results

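Actin and the small proteins that bind it were followed here through 10 genes, ACTB, ACTG1, TMSB10, TMSB4X, PFN1, CFL1, ARPC1A, ARPC1B, ARPC2 and ARPC3, out of 28806 genes listed for HCT-116 and 29551 listed for HepG2. The members were selected by name, with values of the same cells in view (their level, variation and co-variation), so what follows is a description of those values and carries no test. All 10 were found in both gene tables.

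Single cells were sequenced with Smart-seq2, a plate method that copies polyadenylated RNA into full-length cDNA, from 2 cancer lines grown in DMEM with 10% fetal bovine serum and 1% penicillin-streptomycin. HCT-116 derives from a human colorectal carcinoma, and HepG2 is a name given to cells of a human liver tumour. The live groups held 91 HCT-116 and 68 HepG2 cells, processed without fixation, and the fixed groups held 92 HCT-116 and 83 HepG2 cells, placed in 80% methanol and kept at -80 °C for 1 week. Each deposited sample is 1 cell and no culture is named in the labels, so each line and treatment was taken as 1 sample. No p-value was therefore computed and SDs are given over cells. Per the methods, live and fixed cells were parts of a divided cell suspension. HepG2 was run in 2 experiments, not told apart by the labels, and HCT-116 in 1. Libraries of fixed cells were made after the week of storage, and library batch and fixation cannot be told apart. Cell line and experiment cannot be told apart either.

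Values are TPM, the share of a transcript among those of the cell after division of its reads by its length. Median total reads per cell lay between 1.8 and 2.5 M (mega) in the 4 groups. Ribosomal RNA took a median of 24.84% of the TPM of a live and 7.659% of a fixed HCT-116 cell, and 6.856% and 2.464% in HepG2, and the TPM of a cell add up to a fixed sum. Comparisons were therefore repeated with ribosomal RNA left out and with each cell rescaled by the median ratio of its broadly detected genes. Of 15 hepatocyte markers, 8 were found in each table, and 0 of them were above 1 TPM in 50% or more of the HepG2-labelled cells in either group, and their summed level had a median of 0.03953 TPM (live) and 0 (fixed). The name HepG2 is used below as a label only. Of the intestinal markers, CDX2 and EPCAM passed that limit in HCT-116 and EPCAM alone in HepG2, while 0 markers of muscle and fibroblasts or of blood passed it in any group. A column of 1 live and 1 fixed HepG2 cell hold equal values, and 6 fixed HepG2 columns are very similar to others. Leaving out the equal columns moved no member's fixed minus live difference by more than 0.0098 on the log2 scale, and leaving out the similar ones moved none by more than 0.036.

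Actin exists as monomers and as filaments that grow at one end and shorten at the other. Beta-thymosins hold monomers in reserve, profilin hands them to growing ends, cofilin severs old filaments, and the Arp2/3 complex starts new branches on the side of existing filaments. Cultured epithelial lines use this cycle for their cortex, adhesions and protrusions, and the cytoplasmic actin genes are targets of serum response factor, which reads the size of the monomer pool through its MRTF cofactors.

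Members were placed on the RefSeq genome build GRCh38.p14. ACTB spans chr7:5527148-5530601 and ACTG1 chr17:81509971-81512799. TMSB10 lies at chr2:84905656-84906671 and TMSB4X at chrX:12975110-12977223. PFN1 lies at chr17:4945652-4948530 and CFL1 at chr11:65854673-65858180. ARPC1A and ARPC1B are neighbours, at chr7:99325898-99366262 and chr7:99374259-99394816. ARPC2 lies at chr2:218217189-218254348 and ARPC3 at chr12:110434823-110450337. Member transcripts were short, with a median length of 1328 bases against 2725 over 19980 listed genes, and their median GC content was 54.01% against 48.80%.

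RefSeq promoter windows, from 250 bases before the start to 50 after it, were found for 8 of the 10 members, with a pair of starts for ARPC2. ACTB and ARPC1B had no entry. A CArG box, the sequence to which serum response factor binds, was searched on both strands without mismatch and found in ACTG1 only among these windows. Of 35116 RefSeq promoter windows, 1.293% hold such a box. The stretch of the ACTG1 window that holds it, chr17:81512829-81512948 on the minus strand, is shown because ACTG1 and ACTB varied together more closely than most pairs of members. Capitals mark the box, whose first base lies 94 bases before the start (position -94).
ACTG1 promoter: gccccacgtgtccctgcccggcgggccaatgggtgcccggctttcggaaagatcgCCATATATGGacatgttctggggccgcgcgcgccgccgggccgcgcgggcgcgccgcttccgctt
The match describes the letters of this window and nothing more.

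All 10 genes were above 0 TPM in every cell of every group, 91 of 91, 92 of 92, 68 of 68 and 83 of 83, which puts the exact 95% lower limit of the share of cells between 94.72% and 96.07% (counting error only). Together they took a median of 1.631% of the TPM of a live HCT-116 cell (range 0.5400 to 2.914) and 2.003% of a fixed one (0.4848 to 4.683). In HepG2 the median was 2.094% in live cells (0.4681 to 5.007) and 2.807% in fixed cells (1.396 to 7.587). With ribosomal RNA left out the HCT-116 medians were 2.225% live and 2.150% fixed, so the order of live and fixed turned round, while those of HepG2 were 2.210% and 2.873%.

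**Figure D1:**
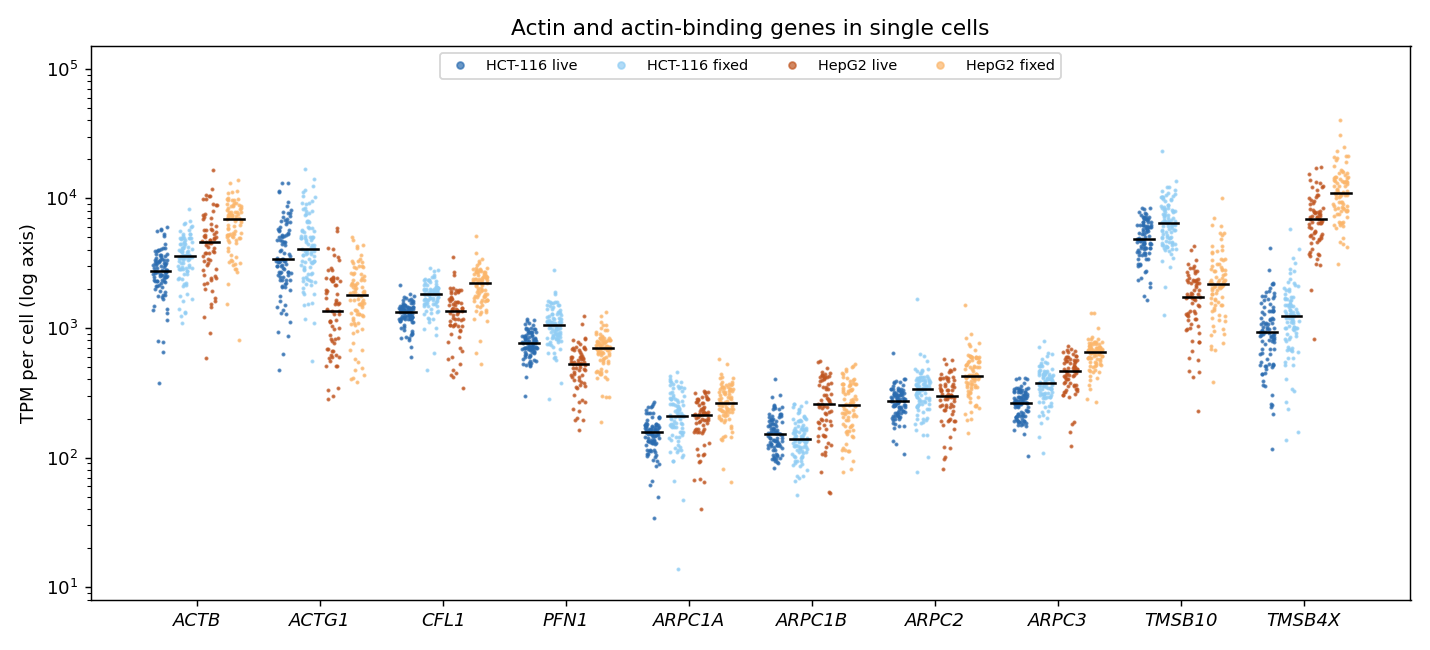
TPM of each member in each cell (log axis), with live and fixed cells of HCT-116 in dark and light blue and those of HepG2 in dark and light orange; black bars mark medians. TMSB10 is the highest member in HCT-116 (median 4872 TPM live) and TMSB4X in HepG2 (6954 TPM live), and the Arp2/3 subunits are the lowest.

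ACTB and ACTG1 encode the cytoplasmic beta and gamma actins, which differ by a few residues at their start. ACTB ranged from 378.1 to 6042 TPM in live HCT-116 cells (median 2744) and from 1087 to 8305 in fixed ones (median 3602). In HepG2 it ranged from 583.5 to 16548 TPM live (median 4573) and from 814.0 to 13742 fixed (median 6876). ACTB was thus higher in HepG2 than in HCT-116 under both treatments, with wide overlap, since 18 of 68 live HepG2 cells lay above the highest live HCT-116 cell. ACTG1 had a median of 3382 TPM in live HCT-116 cells (473.4 to 13215) and of 4074 in fixed ones (558.9 to 16699). Its HepG2 medians were 1357 TPM live (282.4 to 5890) and 1802 fixed (384.2 to 5023). ACTG1 went the opposite way to ACTB, and only 6 of 68 live HepG2 cells exceeded the median of live HCT-116.

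TMSB10 and TMSB4X encode beta-thymosins, which sequester actin monomers. TMSB10 had a median of 4872 TPM in live HCT-116 (1635 to 8441) and of 6504 in fixed HCT-116 (1251 to 23011). In HepG2 its median was 1725 TPM live (228.9 to 4266) and 2167 fixed (384.4 to 10023). No live HepG2 cell reached the HCT-116 median, and 29 of 68 fell below the lowest live HCT-116 cell. TMSB4X had a median of 922.6 TPM in live HCT-116 (115.8 to 4115) and of 1236 in fixed HCT-116 (136.8 to 5781). In HepG2 the median was 6954 TPM live (825.7 to 17406) and 10949 fixed (3136 to 40136). Of 68 live HepG2 cells, 57 lay above the highest live HCT-116 cell, as did 78 of 83 among fixed cells.

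PFN1 encodes profilin 1, which promotes exchange of the nucleotide on monomers and delivers them to filament ends. Its median was 760.6 TPM in live HCT-116 (297.4 to 1166), 1053 in fixed HCT-116 (285.0 to 2797), 526.9 in live HepG2 (161.7 to 1226) and 705.6 in fixed HepG2 (189.2 to 1338). CFL1 encodes cofilin 1, the severing protein of non-muscle cells. Its median was 1326 TPM in live HCT-116 (599.2 to 2148) and 1360 in live HepG2 (341.8 to 3516), so the lines were alike in the middle and differed in width. Fixed cells stood at 1836 TPM in HCT-116 (472.6 to 2899) and 2219 in HepG2 (530.0 to 5109).

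ARPC1A and ARPC1B encode alternative versions of the Arp2/3 subunit ARPC1, a beta-propeller protein, and ARPC2 and ARPC3 encode subunits that every complex carries. ARPC1A had medians of 157.2 (live) and 209.4 TPM (fixed) in HCT-116 and of 211.9 and 264.1 in HepG2, with cells from 13.80 to 572.4 TPM over the 4 groups. ARPC1B had medians of 152.4 and 138.4 TPM in HCT-116 and of 260.7 and 256.4 in HepG2, with cells from 51.21 to 556.3 TPM. It was the only member whose median was lower in fixed than in live cells of both lines. ARPC2 had medians of 274.7 and 335.9 TPM in HCT-116 and of 300.0 and 425.6 in HepG2 (77.61 to 1686 over all cells). ARPC3 had medians of 264.8 and 376.4 TPM in HCT-116 and of 465.0 and 653.2 in HepG2 (103.1 to 1304). The ranges of live and fixed cells overlapped for every member in both lines, and the member with most fixed cells above the highest live cell was ARPC3 in HCT-116 (35 of 92) and ARPC1A in HepG2 (23 of 83).

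By mean log2(TPM + 1), the order in live HCT-116 cells was TMSB10 (12.22), ACTG1 (11.78), ACTB (11.36), CFL1 (10.32), TMSB4X (9.79), PFN1 (9.55), ARPC2 (8.06), ARPC3 (8.01), ARPC1B (7.26) and ARPC1A (7.21). Neighbours differed by more than their pooled SD over cells at 3 steps only, ACTB over CFL1, PFN1 over ARPC2 and ARPC3 over ARPC1B. In live HepG2 the order was TMSB4X (12.70), ACTB (12.03), TMSB10 (10.59), ACTG1 (10.36), CFL1 (10.27), PFN1 (8.93), ARPC3 (8.77), ARPC2 (8.15), ARPC1B (7.93) and ARPC1A (7.57). There the steps beyond the SD were ACTB over TMSB10, CFL1 over PFN1 and ARPC3 over ARPC2. Fixed cells kept TMSB10, ACTG1 and ACTB at the top in HCT-116 and TMSB4X and ACTB in HepG2. Among all genes, the mean TPM of TMSB10 ranked 8 in live HCT-116 and that of TMSB4X ranked 8 in live HepG2 and 5 in fixed HepG2.

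The first comparison asked whether these transcripts keep their level after a week in methanol. As deposited, 9 of 10 members were higher in fixed HCT-116 cells, with a median log2 difference of 0.40 against -0.05 over 11813 genes with a mean of at least 1 TPM. None was past 1.5-fold in either direction, where 2.45% of the tested genes were higher and 15.8% lower by that much. ARPC3 differed most, by 0.51 on the log2 scale (pooled SD over cells 0.42), from a mean of 263.9 to 383.5 TPM. PFN1 followed at 0.46 (SD 0.41), CFL1 at 0.45 (SD 0.36) and ARPC1A at 0.45 (SD 0.62). ARPC1B lay at -0.14 (SD 0.46), from 160.6 to 145.7 TPM. With ribosomal RNA left out the member median was 0.09 against -0.24 over all genes, and the differences of ACTG1 and ARPC2 became negative, at -0.08 and -0.06, while 0.5478% of the tested genes were higher and 24.39% lower. With the median ratio scaling the member median was 0.25 against -0.15, with 0.9688% of genes higher and 19.75% lower. In both lines this background holds genes of every level from 1 TPM, while each member had a mean of at least 100 TPM. The paper reports that highly expressed genes and shorter transcripts were more often higher in fixed cells. No background of like level or length was set beside the members, and whether either plays a part was not tested.

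In HepG2 the mean log2(TPM + 1) of all 10 members was at or above the live value as deposited. The median log2 difference was 0.50 against 0.03 over 12486 genes. Of the members, 3 were at least 1.5-fold higher and 0 lower, beside 8.16% and 14% of the tested genes. These 3 were CFL1 (0.73, SD 0.60, from 1357 to 2172 TPM), TMSB4X (0.71, SD 0.70, from 7435 to 12042 TPM) and ARPC2 (0.60, SD 0.57, from 305.7 to 460.7 TPM). ARPC1B lay at 0.0035 (SD 0.71), while its mean TPM was lower in fixed cells (274.8 live, 267.9 fixed). The count past 1.5-fold fell to 0 with ribosomal RNA left out and with the median ratio scaling, where the member medians were both 0.32, against -0.09 over all genes. Of the tested genes, 4.065% were then higher and 17.94% lower with ribosomal RNA left out, and 3.986% and 18% with the median ratio scaling. The count of members past 1.5-fold was 7 in 46 pairs of live and fixed cells of like total reads, where 17.13% of the tested genes were higher and 11.96% lower. In both lines ARPC1B was the lowest and the only member below the median of all genes.

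**Figure D2:**
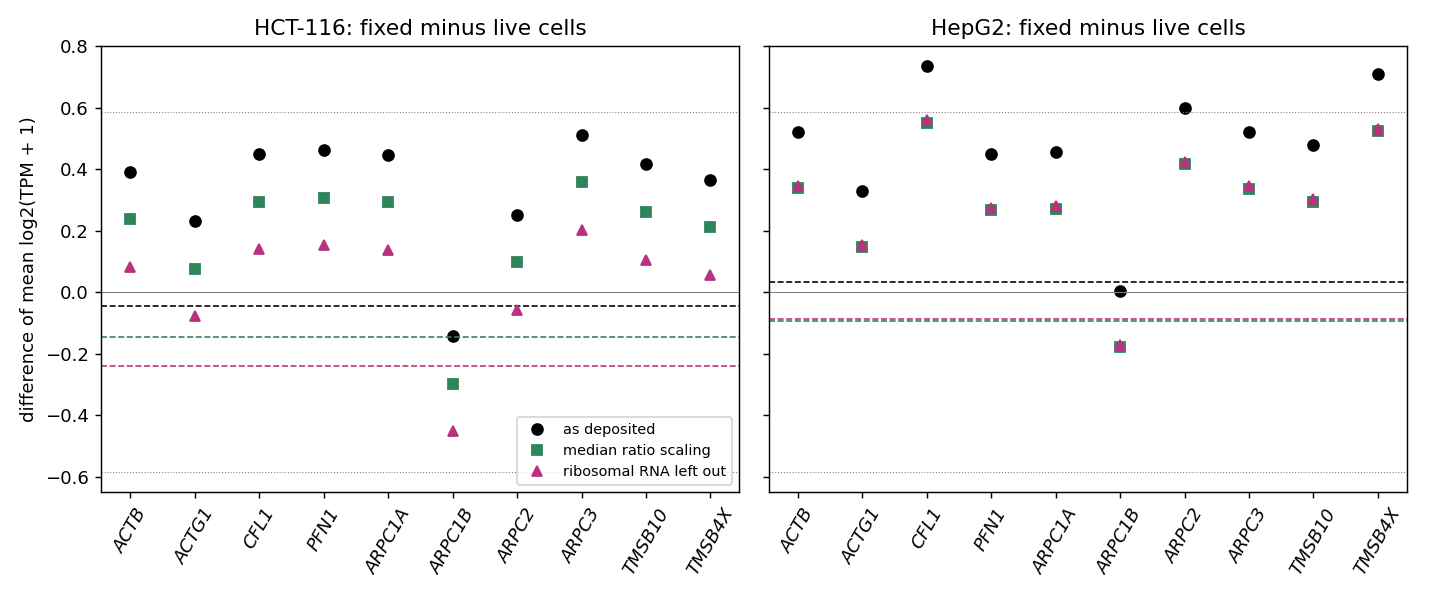
Difference of mean log2(TPM + 1), fixed minus live cells, for each member as deposited (circles), with the median ratio scaling (squares) and with ribosomal RNA left out (triangles); dashed lines are the medians over all tested genes in the same colours and dotted lines mark 1.5-fold. Of the 10 members, 9 lie above the line of their own scaling in each line, and ARPC1B lies below it, at -0.14 in HCT-116 as deposited.

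Ratios of members within a cell do not depend on how the cell was scaled. The log2 ratio of ARPC1B to ARPC1A had a median of 0.03 in HCT-116 when live and of -0.55 when fixed. In HepG2 it was 0.45 in live and 0.03 in fixed cells. ARPC1B exceeded ARPC1A in 46 of 91 live HCT-116 cells (50.55%, exact 95% interval 39.86 to 61.20) and in 18 of 92 fixed ones (19.57%, 12.03 to 29.15). In HepG2 it did so in 52 of 68 live (76.47%, 64.62 to 85.91) and 42 of 83 fixed cells (50.60%, 39.40 to 61.76). The median thus lay lower in fixed cells of both lines, by 0.58 in HCT-116 and 0.42 in HepG2, less than the pooled SD over cells of 0.68 and 0.63. The ARPC1B transcript has the higher GC content of the 2 (57.78% against 50.13%) and a similar length (1511 against 1582 bases). Whether that plays a part was not tested.

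The actin and thymosin ratios set the lines apart. The log2 ratio of ACTB to ACTG1 had a median of -0.42 in live HCT-116 (range -1.466 to 1.102) and 1.64 in live HepG2 (0.3736 to 3.693). ACTB exceeded ACTG1 in 17 of 91 live and 32 of 92 fixed HCT-116 cells, and in 68 of 68 live and 83 of 83 fixed HepG2 cells. The log2 ratio of TMSB10 to TMSB4X had a median of 2.44 in live HCT-116 (0.1818 to 5.327) and -2.12 in live HepG2 (-5.236 to 0.6551). TMSB10 was the more abundant thymosin in 91 of 91 live and 92 of 92 fixed HCT-116 cells, in 1 of 68 live HepG2 cells (1.471%, exact 95% interval 0.03723 to 7.923) and in 0 of 83 fixed HepG2 cells (upper limit 4.347%). In fixed cells 83 of 83 HepG2 ratios lay below the lowest HCT-116 ratio, so the groups did not overlap. Live and fixed medians of this ratio differed by -0.01 in HCT-116 and -0.29 in HepG2, against an SD over cells near 0.9 (0.8866 and 0.9106).

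CFL1 exceeded PFN1 in 89 of 91 live and 89 of 92 fixed HCT-116 cells and in every HepG2 cell. The median log2 ratio of CFL1 to PFN1 was 0.81 live and 0.80 fixed in HCT-116, and 1.36 in live and 1.62 in fixed HepG2. The ratio of ARPC2 to ARPC3 had medians of -0.02 (live) and -0.21 (fixed) in HCT-116, and -0.61 (live) and -0.50 (fixed) in HepG2. Its treatment difference took opposite signs in the 2 lines and was small beside the SD over cells, 0.59 and 0.47.

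**Figure D3:**
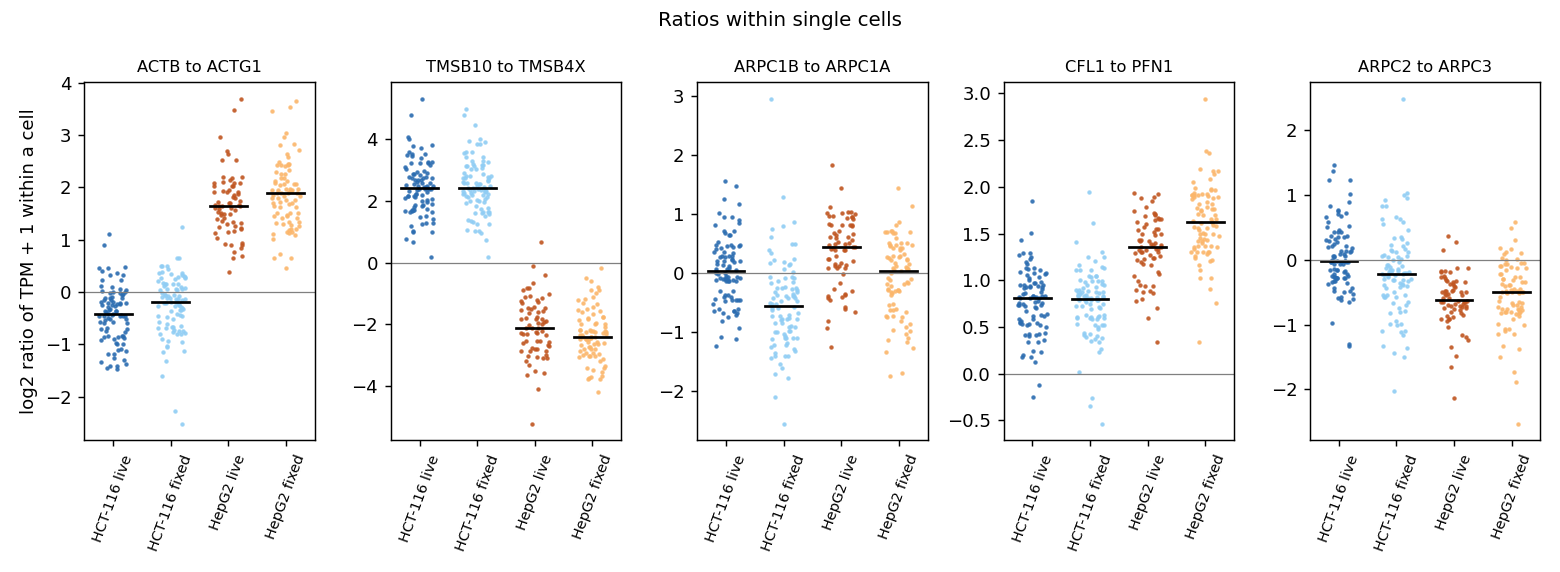
Log2 ratio of TPM + 1 of 2 members within each cell, by group, with black bars at the medians and a grey line where both are equal. ACTB to ACTG1 and TMSB10 to TMSB4X separate the lines, and ARPC1B to ARPC1A lies lower in fixed than in live cells of each line (medians -0.55 and 0.03 in HCT-116).

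The lines were then set side by side within each treatment, from tables that were deposited separately but made by the same pipeline. The methods count the experiments of each line separately, so differences between lines and between experiments cannot be told apart. In live cells 4 members were at least 1.5-fold higher in HepG2 and 3 lower, where 29.2% of 12481 tested genes were higher and 23.6% lower. The 4 were TMSB4X (log2 difference 2.91, SD 0.81), ARPC3 (0.76, SD 0.43), ACTB (0.67, SD 0.80) and ARPC1B (0.67, SD 0.63). The 3 were TMSB10 (-1.63, SD 0.69), ACTG1 (-1.42, SD 0.99) and PFN1 (-0.62, SD 0.47). In fixed cells the same 4 members were higher and the same 3 lower, beside 31.9% and 20.5% of 12232 genes, with TMSB4X at 3.25, TMSB10 at -1.57 and ACTG1 at -1.33. TMSB4X, TMSB10, ACTG1 and ARPC3 stayed past 1.5-fold in each of the 9 alternatives run for both treatments. ACTB and ARPC1B fell short in live cells with ribosomal RNA left out (0.51 for both) and in cells paired on reads, which left 2 members higher in each case, beside 26.40% and 27.88% of the tested genes. PFN1 fell short in live cells with the median ratio scaling (-0.55) and with the ratio of mean TPM (-0.5450). It also fell short in fixed cells paired on reads (-0.55). This left 2 members lower in each case, beside 22.35% of the tested genes in live cells with the median ratio scaling. The shares of all genes lower with the ratio of mean TPM and in fixed paired cells are not given here. CFL1, ARPC1A and ARPC2 differed by less than 1.5-fold between the lines under both treatments.

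The spread over cells was compared as the coefficient of variation (CV, SD over mean) among genes of at least 100 TPM. In HCT-116, 7 of 10 members had the higher CV in fixed cells, beside 77.4% of 931 such genes. In HepG2 it was 3 of 10, beside 39.6% of 930 genes. CFL1 was the steadiest member in live HCT-116, with a CV of 0.1944, and 95.27% of genes varied more. Its mean was 1302 TPM, while that background holds all genes from 100 TPM. No background of like level was set beside the members, and whether level plays a part was not tested. ACTG1 varied most in live cells of both lines, with a CV of 0.6220 in HCT-116 and 0.7139 in HepG2, where 9.345% and 7.742% of genes varied more. TMSB4X was next in live HCT-116 (0.5966) and ACTB in live HepG2 (0.5966). ARPC2 had a CV of 0.2666 live and 0.5061 fixed in HCT-116, where 1 fixed cell held 1686 TPM. Without the highest cell of each group these were 0.2310 and 0.3064. Without those cells 8 members had the higher CV in fixed HCT-116 cells and 1 did in HepG2. The shares of all genes without such cells are not given here.

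Co-variation was described as Pearson's r of log2(TPM + 1) over the cells of a group, which share library batch and differ in depth. Over the 45 pairs of members the median r was 0.22 in 91 live HCT-116 cells, 0.24 in 92 fixed HCT-116 cells, 0.61 in 68 live HepG2 cells and 0.35 in 83 fixed HepG2 cells. Over all pairs of genes of at least 100 TPM the medians were 0.12, 0.16, 0.28 and 0.12. These pairs were not matched to the members in level. With genes detected, total reads and the ribosomal RNA percent regressed out, the member medians were 0.22, 0.25, 0.52 and 0.28. Those over all pairs were then 0.11, 0.15, 0.24 and 0.08. In live HepG2, 9 members correlated with total reads at r between 0.24 (TMSB4X) and 0.53 (CFL1), while TMSB10 stood at -0.02. The value over all genes is not given here.

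ACTB and ACTG1 were among the closest pairs in every group, with r = 0.83 and 0.74 in live and fixed HCT-116 and 0.81 and 0.69 in HepG2. ACTG1 shares 4.02% of its 31-base words with ACTB. CFL1 and PFN1 reached r = 0.86 in live HepG2 (68 cells), 0.70 in fixed HepG2 and 0.67 in fixed HCT-116. In live HepG2 the highest partner of each of PFN1, ARPC1A, ARPC1B, ARPC2, ARPC3 and ACTB was CFL1, with r from 0.74 (ARPC1B) to 0.86 (PFN1). TMSB10 stood outside this block. The closest partner of ACTG1 and TMSB4X in live HepG2 was ACTB (0.81 and 0.55). Their median r with the other members there was 0.50 and 0.43. TMSB10 had a median r with the other members of -0.06 in live and 0.0027 in fixed HepG2, but of 0.28 and 0.34 in HCT-116, and its closest partner in both HepG2 groups was TMSB4X (0.22 and 0.40). ARPC3 and TMSB4X were the least tied in live HCT-116, with median r of 0.01 and -0.0036.

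**Figure D4:**
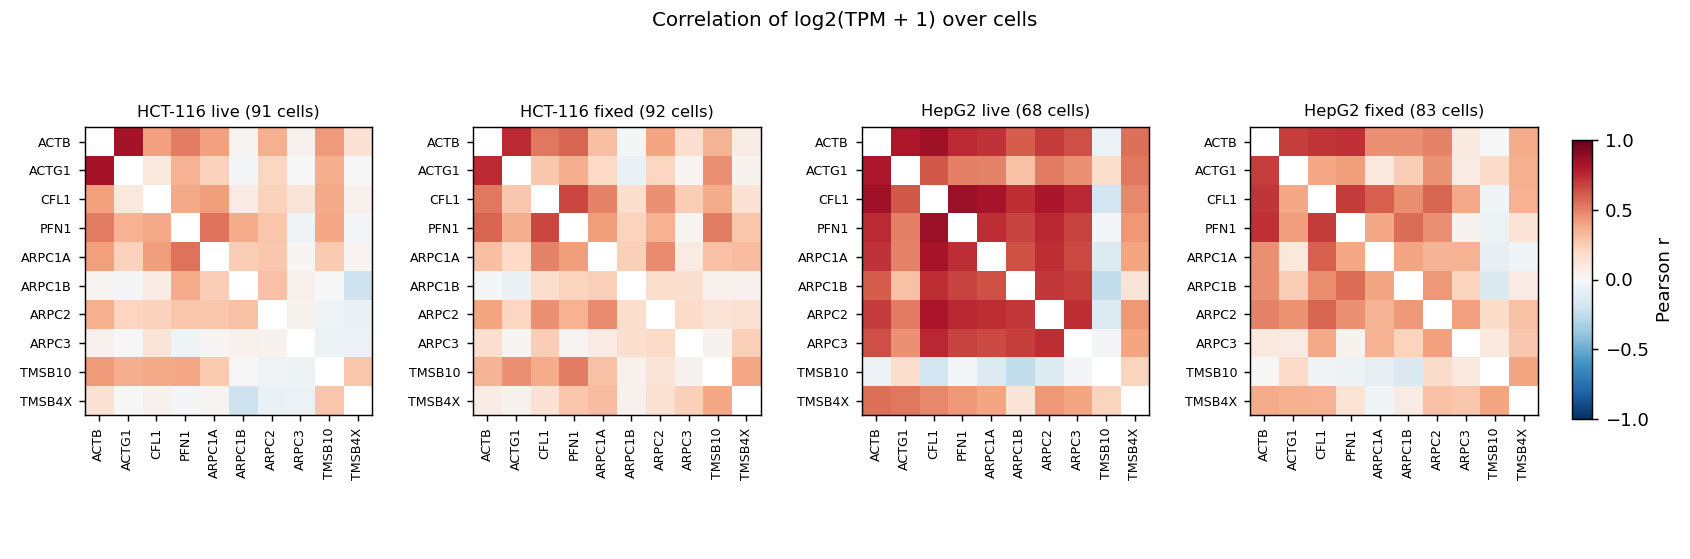
Pearson's r of log2(TPM + 1) over cells for each pair of members in the 4 groups, from -1 (blue) to 1 (red). In live HepG2 (68 cells) the members other than TMSB10 form a block of high r around CFL1, while in HCT-116 the ACTB and ACTG1 pair stands out (0.83 live, 0.74 fixed).

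Members were also set beside lists of proliferation genes and of immediate early genes. The mean of 10 G2/M genes correlated with ACTB at r = 0.56 in live HCT-116 and 0.48 in live HepG2, and with CFL1 at 0.55 in both. PFN1 reached 0.63 with it in live HepG2. Median r of the members with this list was 0.29 and 0.21 (live, fixed) in HCT-116 and 0.51 and 0.19 in HepG2, beside 0.24, 0.22, 0.37 and 0.18 over all genes of at least 100 TPM. TMSB10 and TMSB4X were near or below 0 with it in fixed cells, between -0.21 (TMSB4X, HCT-116) and -0.01 (TMSB10, HCT-116). With 13 immediate early genes the member median was -0.05 live and 0.25 fixed in HCT-116, and 0.10 live and 0.22 fixed in HepG2, beside -0.0094, 0.12, 0.07 and 0.07 over all genes of that level. With 13 S phase genes it was 0.35 (live) and 0.19 (fixed) in HCT-116, and 0.33 (live) and 0.18 (fixed) in HepG2, beside 0.26, 0.23, 0.28 and 0.18.

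Among 3931 genes of at least 10 TPM in each group, those most like the mean of the members, by r averaged over the 4 groups, were YWHAE (0.66), PPP1CA (0.66), OAZ1 (0.64), EIF5A (0.64) and YWHAB (0.63). The gene closest to each member was WDR1 for ACTB (mean r 0.59), TPM4 for ACTG1 (0.54), EIF5A for CFL1 (0.70) and for PFN1 (0.67), and YWHAE for ARPC1A (0.60). It was KDELR2 for ARPC1B (0.48), BZW1 for ARPC2 (0.57), YWHAZ for ARPC3 (0.43), S100A10 for TMSB10 (0.37) and MYL6 for TMSB4X (0.38). WDR1 assists cofilin in disassembly, TPM4 is a tropomyosin that coats filaments, and MYL6 is a light chain of non-muscle myosin.

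The authors' transcript tables, in CPM (counts scaled to the reads of the cell), showed which forms carried the members. For ACTB, CFL1, PFN1, ARPC1B, TMSB10 and TMSB4X 1 transcript was listed. For ACTG1, ARPC1A and ARPC3 the main form held between 98.17% and 99.90% of the summed CPM in every group. ARPC2 was divided. NM_152862 held a median of 84.22% of a cell's ARPC2 CPM in live HCT-116 (39.01 to 100) and 96.51% in fixed HCT-116 (66.86 to 100), against 60.90% in live HepG2 (9.609 to 92.59) and 65.95% in fixed HepG2 (33.39 to 94.57). NM_005731 held 25.21% in live and 25.18% in fixed HepG2, 4.253% in live HCT-116 and close to 0 in fixed HCT-116. The predicted form XM_017003113 took the rest. Kallisto divides reads among forms that are nearly the same in sequence, so these shares are estimates.

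**Figure D5:**
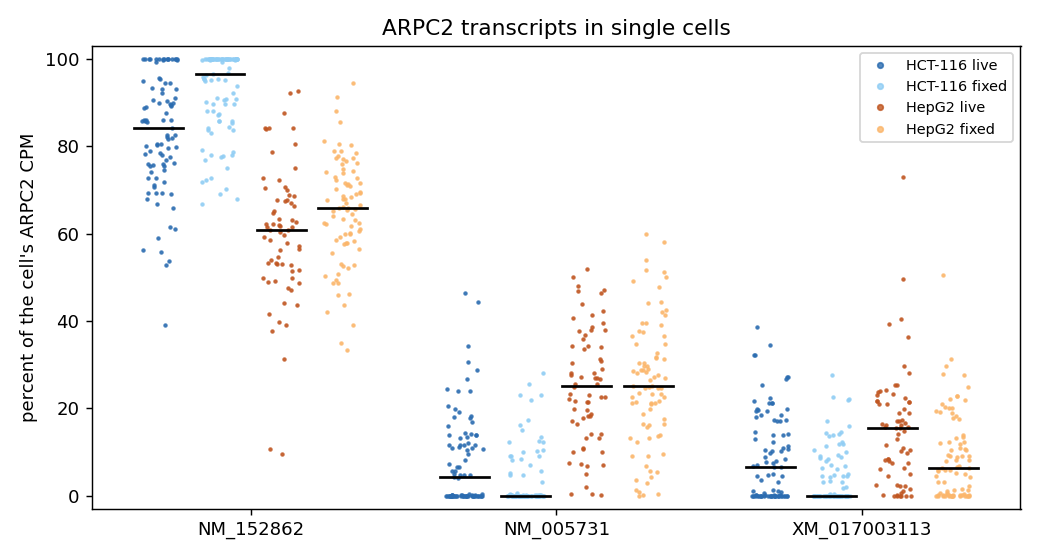
Percent of each cell's ARPC2 CPM held by each listed transcript, by group, with black bars at the medians. NM_005731 lies higher in HepG2 (medians 25.21% live, 25.18% fixed) than in HCT-116 (4.253% live).

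Sharing of sequence with other genes of the tables was highest for the actins. Of the 31-base words of ACTB and ACTG1, 14.14% and 12.33% also occur in other genes listed in the tables, led by POTEI for ACTB (7.800%). The mean level of POTEI was at most 0.9108 TPM in any group. For CFL1 and PFN1 the shares were 1.811% and 1.158%, for TMSB4X 3.041%, and for the other members 0, so that the compared ARPC1A and ARPC1B transcripts have no such word in common. Counting also GENCODE genes that the tables do not list, the shares were 83.52% for ARPC1B (with 1 gene), 77.45% for ARPC1A, 45.78% for TMSB4X, 40.50% for ARPC3, 30.13% for ACTB and 20.80% for ACTG1. What such genes would do to the ratio of ARPC1B to ARPC1A was not tested. The lowest median number of assigned reads per cell among the members was 236.3, for ARPC1B in fixed HCT-116, and the highest 19213, for ACTB in fixed HepG2.

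The rest of the actin machinery was described through 89 further genes. In HCT-116, 79 were tested, of which 3 were at least 1.5-fold higher and 10 lower in fixed cells, where 2.45% and 15.8% of all tested genes were, with a median log2 difference of 0.03 against 0.40 for the members. In HepG2, 79 were tested, of which 14 were higher and 7 lower, beside 8.16% and 14% of all tested genes, with a median of 0.17 against 0.50. The other Arp2/3 subunits had medians of 0.35 in HCT-116 and 0.38 in HepG2 over 5 genes, and the nucleation promoting genes of 0.32 and 0.40, over 12 and 11 genes. Capping and severing genes stood at 0.29 and 0.46 over 6 genes, and the GTPases and kinases at 0.23 and 0.46 over 8. Relatives of cofilin, profilin and thymosin stood at 0.13 and 0.33 over 4 and 5 genes, and non-muscle myosins at 0.11 and 0.30 over 6. Monomer and turnover genes stood at -0.26 and 0.16 over 14 and 13 genes, and other actins at -0.03 and 0.58 over 1 and 2. The bundling and linking genes (-0.30 and 0.04), the tropomyosins (-0.16 and -0.15) and the MRTF-SRF genes (-0.34 and -0.13) were also low. No gene of the list was higher in both lines or moved in opposite directions past 1.5-fold, and 4 were lower in both. The share of all tested genes lower in both lines is not given here, so nothing more is read from this overlap.

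CCN1, a secreted matrix protein and target of SRF and YAP, was lower by 1.69 in HCT-116 and 2.36 in HepG2 on the log2 scale, from 22.41 to 5.675 TPM and from 22.57 to 2.263 TPM. ACTN4, the crosslinker alpha-actinin 4, fell by 1.38 and 1.25, from 63.35 to 25.51 TPM and from 52.34 to 25.61 TPM. SSH3, a phosphatase of the slingshot family that activates cofilin, fell by 1.16 and 1.60, and CORO1B, a coronin that acts on Arp2/3 branches, by 0.95 and 0.69. Their SDs over cells in fixed cells were 1.83 and 1.30 for CCN1, 0.77 and 1.34 for ACTN4, 1.57 and 1.42 for SSH3 and 1.38 and 0.89 for CORO1B. All 4 stayed lower past 1.5-fold with ribosomal RNA left out and with the median ratio scaling. The ribosomal RNA gene RNA18S5 had a mean of 255152 TPM (live) and 76548 (fixed) in HCT-116 cells and of 55075 and 22615 in HepG2, while RNA28S5 had means of 255.1 and 1188 TPM in HCT-116 and of 140.4 and 689.1 in HepG2.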

How the data were processed

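Single-cell Smart-seq2 libraries of live and methanol-fixed HCT-116 and HepG2 cells were used, with 334 cells in 4 groups named by the labels. Per the labels and the study's methods, reads were checked with FastQC and quantified by the authors with kallisto 0.46.0 against GRCh38, and transcripts were summed to genes with tximport. The authors deposited TPM per gene and, per transcript, values found to be CPM (counts scaled to the reads of the cell, not divided by length). Cells with more than 4000 genes were kept by the authors, and all columns passed this limit. Of the labelled cells, 4 fixed HCT-116, 1 live HepG2 and 7 fixed HepG2 cells have no column and were not analysed here. The methods give HepG2 2 experiments, not told apart by the labels, and HCT-116 1. The reads of a cell were taken from the step of its CPM values, to the nearest 0.1 M (mega). Only 28.78% to 34.94% of the transcript values came out as whole reads (tolerance 0.001), so no count test was run.

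The members, gene lists and rules were chosen with earlier results of these data known. Differences are between group means of log2(TPM + 1), over genes with a mean of at least 1 TPM, and a gene was called past 1.5-fold (0.585). With each group taken as 1 sample no test was made. CV and pair correlations used genes of at least 100 TPM. Ratios were taken within cells. Shares of cells have exact Clopper-Pearson 95% intervals, for counting error only. Columns were matched by group, and no column of values was left unused. Genes named are the members, the first 5 genes most like their mean and the first for each, the pathway genes past 1.5-fold in the same direction in both lines (up to 10) or in opposite ones, and RNA18S5 and RNA28S5. Older symbols were matched for MRTFA, MRTFB, CCN1 and CCN2. Positions and promoters are from RefSeq (GRCh38.p14), and transcript length, GC content and shared words from GENCODE release 44 on the same genome.

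Alternatives were a pseudocount of 0.1, no minimum or a minimum of 10 TPM, median ratio scaling over genes above 0 in 90% or more of the cells, ribosomal RNA left out, the ratio of mean TPM, equal columns left out, cells paired on total reads (within 0.1 M), Spearman's coefficient, library factors regressed out, SD of log2 in place of CV and a minimum of 30 TPM for CV. Leaving out 6 similar columns (r above 0.95) and the highest cell of each gene was added after seeing the data. pandas 2.3.3, numpy 2.4.6, scipy 1.17.1 and matplotlib 3.10.9 ran in Python 3.11.15, and the steps were tested on simulated data.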

Additional observations from a re-analysis of the deposited data

How the results depend on the processing

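Of 790 values recomputed under the alternatives, 744 stayed within their limits, 46 moved and 0 were reversed by those limits. The sign still changed in 11 of the 790. Of these, 4 were with ribosomal RNA left out, 4 with the ratio of mean TPM, 2 with the median ratio scaling and 1 in paired cells. The members at least 1.5-fold higher in fixed HepG2 cells numbered 7 in cells paired on reads and 0 with either scaling, and those higher in live HepG2 than in live HCT-116 numbered 2 in paired cells and with ribosomal RNA left out. Members with the higher CV in fixed HepG2 cells numbered 1 by the SD of log2 and 1 without the highest cell. The shares of all genes under these settings are not given here. Of the 5 genes most like the members, 3 were among the first 5 in paired cells and 2 with the median ratio scaling. Among the other actin genes in HCT-116, 1 was higher in fixed cells with either scaling. Of all tested genes 0.9688% were higher with the median ratio scaling and 0.5478% with ribosomal RNA left out. With ribosomal RNA left out 19 were lower, beside 24.39% of all tested genes. Those higher numbered 6 with a pseudocount of 0.1 or the ratio of means, and those lower 18 with the pseudocount. The shares of all genes under these last settings are not given here. In HepG2, those higher numbered 25 in paired cells and 7 with either scaling, and those lower 4 in paired cells and 11 with either scaling or the pseudocount. Of all tested genes 3.986% were higher and 18% lower with the median ratio scaling, and 4.065% and 17.94% with ribosomal RNA left out. The shares in paired cells are given above, and those with the pseudocount are not given here. The summed level in live HCT-116 was 2.225% with ribosomal RNA left out. The cause of these changes was not tested. No paired analysis was possible because each group is 1 sample, the cells carry no shared replicate and no test was made. Live and fixed cells differ in library batch, in depth and in ribosomal RNA, and none of these can be told apart from fixation here.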

Other observations

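Of the 89 further actin genes, 81 were tested between the lines in live cells, and 23 were at least 1.5-fold higher and 22 lower in HepG2, beside 29.2% and 23.6% of all tested genes, with a median log2 difference of 0.06. The genes named next were chosen after their values were seen, for large differences. TPM2, a tropomyosin, had a median of 244.1 TPM in live HCT-116 and was above 1 TPM in 91 of 91 cells, but in 11 of 68 live HepG2 cells, with a median of 0. TPM1 went the other way, with medians of 13.21 TPM in live HCT-116 and 189.3 in live HepG2. MSN, which encodes moesin and links filaments to the membrane, exceeded 1 TPM in 91 of 91 live HCT-116 cells (median 35.81 TPM) and in 0 of 68 live and 0 of 83 fixed HepG2 cells. Its relative EZR (ezrin) had medians of 671.8 and 66.46 TPM in the live cells of the lines. The bundling genes FSCN1 (fascin) and PLS3 (plastin 3) had medians of 42.51 and 25.01 TPM in live HCT-116 and of 0.4225 and 0 in live HepG2. CORO1A, a coronin, was above 1 TPM in 29 of 91 live HCT-116 and 61 of 68 live HepG2 cells. The same sides were higher in fixed cells for each of these genes, for example MSN in 90 of 92 HCT-116 cells and CORO1A in 73 of 83 HepG2 cells.

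A single live HepG2 cell, also chosen after its values were seen, held 7498 TPM of ACTG2, the enteric smooth muscle actin, while the next live HepG2 cell held 182.4 and the median was 0. ACTG2 was at most 3.062 TPM in HCT-116 and 87.42 in fixed HepG2. The same cell was the highest of the 68 for ACTB (16548 TPM), ACTG1 (5890), CFL1 (3516), TAGLN (1325 TPM, next 266.0), CCN1 (213.7) and VCL (50.62), and it ranked 2 for TMSB4X and PFN1 and 3 for CCN2. Among the other members it ranked 5 for ARPC2, 10 for ARPC3 and 19 for ARPC1A. It ranked 45 for ARPC1B (197.6 TPM, below the group median of 260.7), 66 for TMSB10, at 454.9 TPM, and 14 for SRF (1.628 TPM). ACTA2 was at 0 there. Its library had 2.7 M (mega) reads, 13956 genes and 8.021% ribosomal RNA, and its column is not among the equal or similar ones.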
